A study of Mus musculus with 20 samples.

Results

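Slurp1, Lypd2, Lypd3, Ly6d, Ly6g6c and Psca are 6 genes of the Ly6/uPAR family, and their rows were taken by gene symbol from a table of 24411 genes measured in 20 mouse eye libraries. All 6 symbols were found and all 6 passed the filter on low values. They were chosen by their normalized values across the 4 groups described next, which are low in the libraries labelled VAD Stra6-/-, and their names fixed the selection without a threshold. Their differences between groups are therefore given as a description, with standard errors and no test.

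The libraries came from the outer eyecup, labelled RPE-choroid, of mice labelled C57BL/6 (C57BL/6J for the knockout line, by the study's methods) that were either wild type (WT) or lacked Stra6, the cell surface receptor that takes up vitamin A from its carrier in blood. From weaning at about 28 days, mice of each genotype received for 12 weeks a vitamin A sufficient diet (VAS, 4 IU per g) or a vitamin A deficient diet (VAD, 0 IU per g), and before that all were raised on standard chow. The 4 groups, VAS WT, VAD WT, VAS Stra6-/- and VAD Stra6-/-, have 5 libraries each, and by the study's methods each library held both eyecups of 1 mouse. The knockout is present in every cell from conception, and the WT mice were purchased while the knockout mice were bred in the laboratory, so genotype and origin cannot be told apart.

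Ly6/uPAR proteins are small and built from a domain of finger-like loops pinned together by disulfide bonds. Most are held on the outer membrane by a glycosylphosphatidylinositol (GPI) anchor, whereas a few, such as SLURP1, are secreted. Several bind nicotinic acetylcholine receptors. In stratified epithelia such as the cornea and the skin they are associated with differentiation and barrier function, and SLURP1 is a known secreted product of the corneal epithelium and is mutated in a human skin disorder of palms and soles.

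Some libraries stood apart or held values that raised questions about their labels. Values are gene counts divided by 1 size factor per library, called normalized values here, and the reads behind them numbered 13331903 to 21878614 per library. The targeted gene Stra6 stood at 2591 ± 149 in VAS WT, 986 ± 415 in VAD WT, 629 ± 49.8 in VAS Stra6-/- and 2163 ± 154 in VAD Stra6-/- (SD, n = 5 each). It was higher in VAD Stra6-/- than in VAD WT (log2 fold change 1.23, adjusted p = 3.92e-06, limma). A knockout label alone would not give this, so that group is called the libraries labelled VAD Stra6-/- from here on. Stra6 is expressed in the RPE, and RPE content differed between groups. The mean sum of 10 RPE genes was 111436 in VAS WT, 40199 in VAD WT, 113820 in VAS Stra6-/- and 508719 in the libraries labelled VAD Stra6-/-. Stra6 relative to this sum was not tested, so its normalized value alone does not settle the label. Within VAD WT, Stra6 was 693, 697 and 669 in replicates 1, 3 and 5, against 1340 and 1529 in replicates 2 and 4. The first 3 of these values are at the level of VAS Stra6-/- (564 to 694). The RPE sum, however, was 29274 to 31458 in those 3 libraries and 111016 to 116001 in VAS Stra6-/-. Stra6 alone therefore does not settle the WT label of those libraries either, and that label was not tested. Comparisons with VAD WT follow the labels as given. The female transcript Xist and the Y-linked Ddx3y also moved with the groups. Xist was 7.69 to 38.4 and Ddx3y 981 to 1193 in VAS WT, against 15320 to 18052 and 0 to 1.02 in VAS Stra6-/-, so between the VAS groups genotype and sex cannot be told apart. The libraries labelled VAD Stra6-/- each held both transcripts, with Xist at 3570 to 4280 and Ddx3y at 741 to 970. VAD WT was split, replicates 2 and 4 standing apart from 1, 3 and 5, with Xist at 10912 and 11767 against 174 to 234 and Ddx3y at 75.2 and 80.5 against 1041 to 1133. Transcripts of both sexes in 1 library go against the stated source of 1 mouse per library, so whether the 5 libraries of these groups are separate animals was not established. The RPE genes Rpe65 and Rlbp1 were present in every group, with the lowest library at 1107 and 3597, and the RPE channel gene Best1 was at most 44.6 in all 20. The corneal keratin gene Krt12 reached group means of 165008 ± 19654 in VAS WT, 279050 ± 150542 in VAD WT, 277635 ± 4370 in VAS Stra6-/- and 2851 ± 512 in the libraries labelled VAD Stra6-/- (SD, n = 5 each).

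Of the 6 genes, 4 lie side by side. On chromosome 15 of GRCm38 (GENCODE vM21), Psca runs from 74714839 to 74717069 on the plus strand, and on the minus strand Slurp1 from 74724318 to 74728034, Lypd2 from 74732247 to 74734329 and Ly6d from 74762056 to 74763620, all within 48782 bases. Lypd3 is on chromosome 7 from 24636550 to 24641118 and Ly6g6c on chromosome 17 from 35065388 to 35070050, both on the plus strand. Slurp1 shares 322 exon bases with Them6 on the other strand, Lypd3 shares 225 with the antisense gene Gm26550 and Ly6g6c shares 22 with Mpig6b. Whether the counting used strand is not given in the sources used here, so reads in those bases cannot be assigned with certainty.

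Because the 6 genes share low values in 1 group, the promoters on hand are shown, those of the 2 genes outside the chromosome 15 cluster. Each is 250 bases before the RefSeq start site (GRCm38.p6), on the plus strand, at chr7:24636320-24636569 for Lypd3 and chr17:35067075-35067324 for Ly6g6c. The Ly6g6c window lies inside the GENCODE span given above (from 35065388), so it is upstream of the RefSeq start but not of the GENCODE gene start. Capitals mark the only match of the 4 motifs searched, which is the letters AGGAAG read on the opposite strand.
Lypd3: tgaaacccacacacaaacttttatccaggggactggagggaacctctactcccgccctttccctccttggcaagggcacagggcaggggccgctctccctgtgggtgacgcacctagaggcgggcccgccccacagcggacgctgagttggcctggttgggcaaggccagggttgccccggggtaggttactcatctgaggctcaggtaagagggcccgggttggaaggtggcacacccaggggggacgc
Ly6g6c: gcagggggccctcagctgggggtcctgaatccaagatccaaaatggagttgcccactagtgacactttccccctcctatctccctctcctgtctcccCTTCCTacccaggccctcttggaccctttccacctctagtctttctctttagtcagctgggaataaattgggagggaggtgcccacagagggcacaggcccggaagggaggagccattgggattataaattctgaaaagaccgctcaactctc

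The motifs, searched on both strands, were the AP-1 letters TGANTCA, the KLF/SP letters CCNCNCCC, the ETS letters AGGAAG and AGGTCA, the core half-site of retinoic acid receptors. Among 32851 promoters of the same length these occurred in 6.75%, 45.9%, 29.5% and 14%. The Lypd3 window held none of them, and the Ly6g6c window held the ETS letters once, starting 153 bases before the start site. These are matches of letters, and neither their presence nor their absence says whether a factor binds. The GC content was 65.2% for Lypd3 and 55.2% for Ly6g6c, against a median of 52.4% over all promoters.

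Slurp1, the secreted member, changed most between groups. In VAS WT its normalized values in replicates 1 to 5 were 7526, 8077, 6925, 9231 and 6646. In VAD WT they were 33540, 5671, 30980, 5580 and 32951, so replicates 1, 3 and 5 were far above the VAS WT libraries and replicates 2 and 4 below all of them. In VAS Stra6-/- the values were 9448, 9470, 9602, 9255 and 9732, each above the highest VAS WT library, if narrowly, and the tightest group of any member, with a coefficient of variation of 1.89%. In the libraries labelled VAD Stra6-/- they were 85.6, 90.2, 81.9, 89.5 and 81.2. No library of that group came near the other 15. The mean of 85.7 ± 4.18 (SD, n = 5) was 254-fold lower than in VAD WT and 111-fold lower than in VAS Stra6-/-, which on the log2(value + 1) scale are differences of -7.54 and -6.78 (SE 0.39 each).

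Lypd2, which encodes a protein with a GPI anchor signal, followed the same course in nearly every library. It had 13072, 14334, 13220, 17123 and 13164 in VAS WT and 61486, 10438, 60951, 9257 and 61018 in VAD WT. The split of VAD WT into replicates 1, 3 and 5 and replicates 2 and 4 was the one seen for Slurp1. VAS Stra6-/- had 14545, 13831, 13206, 14398 and 14421, within the range of VAS WT. The libraries labelled VAD Stra6-/- had 146, 199, 163, 135 and 187, on average 245-fold below VAD WT and 84.8-fold below VAS Stra6-/-. The log2 differences were -7.48 and -6.41 (SE 0.41 each).

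Psca encodes prostate stem cell antigen, a GPI-anchored surface protein that in spite of its name is found in several epithelia. Its values were 13997, 15383, 13690, 16716 and 13187 in VAS WT and 13679, 14495, 14056, 14060 and 14569 in VAS Stra6-/-, groups that overlap throughout. In VAD WT they were 34249, 8489, 34137, 8063 and 34349, with the same libraries high and low. In the libraries labelled VAD Stra6-/- they were 280, 208, 264, 197 and 301. That is 95.4-fold below VAD WT (log2 difference -6.29, SE 0.33) and 56.7-fold below VAS Stra6-/- (-5.84, SE 0.33).

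Ly6g6c, a GPI-anchored member encoded among the class III genes of the major histocompatibility complex, was lower in level but alike in pattern. It had 1487, 1548, 1525, 1600 and 1390 in VAS WT, and 6135, 1075, 5714, 1162 and 5948 in VAD WT. In VAS Stra6-/- it had 2207, 2311, 2299, 2199 and 2390, all above VAS WT. In the libraries labelled VAD Stra6-/- it had 53.4, 39.7, 58.3, 28.1 and 80.3. The last group was 77.1-fold below VAD WT (log2 difference -5.93, SE 0.40) and 43.9-fold below VAS Stra6-/- (-5.51, SE 0.40), and its coefficient of variation of 38.1% was well above the 4.88% of Slurp1 there.

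Lypd3 encodes C4.4A, a GPI-anchored protein of the upper layers of stratified squamous epithelia. It differed from the previous 4 genes in that its highest group was VAS Stra6-/-. The VAS WT libraries had 3610, 3780, 3265, 4095 and 3052, and the VAS Stra6-/- libraries 8988, 8541, 8296, 9069 and 9088. The VAS Stra6-/- libraries all lay above those of both WT groups. VAD WT had 6041, 2688, 6288, 2576 and 6525, a narrower split than that of Slurp1. The libraries labelled VAD Stra6-/- had 192, 189, 176, 211 and 248, a mean 23.7-fold below VAD WT (log2 difference -4.45, SE 0.21) and 43.3-fold below VAS Stra6-/- (-5.44, SE 0.21).

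Ly6d, a GPI-anchored protein also used as a surface marker of early B lineage cells, was scarce in all libraries. Its normalized values were 14.7, 23.1, 22.4, 23.4 and 21.4 in VAS WT and 23.6, 14.4, 25.5, 18.8 and 20.8 in VAD WT. Replicates 2 and 4 were again the lowest of VAD WT, but both WT groups spanned nearly the same range. VAS Stra6-/- had 77.2, 74.6, 60.0, 51.5 and 78.7, above all other libraries. The libraries labelled VAD Stra6-/- had 3.02, 4.51, 1.02, 8.78 and 17.8, which rest on 1 to 21 reads, and replicate 5 overlapped VAD WT. The log2 differences of the last group were -1.81 (SE 0.43) from VAD WT and -3.50 (SE 0.43) from VAS Stra6-/-, and the added 1 shrinks both.

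**Figure D1:**
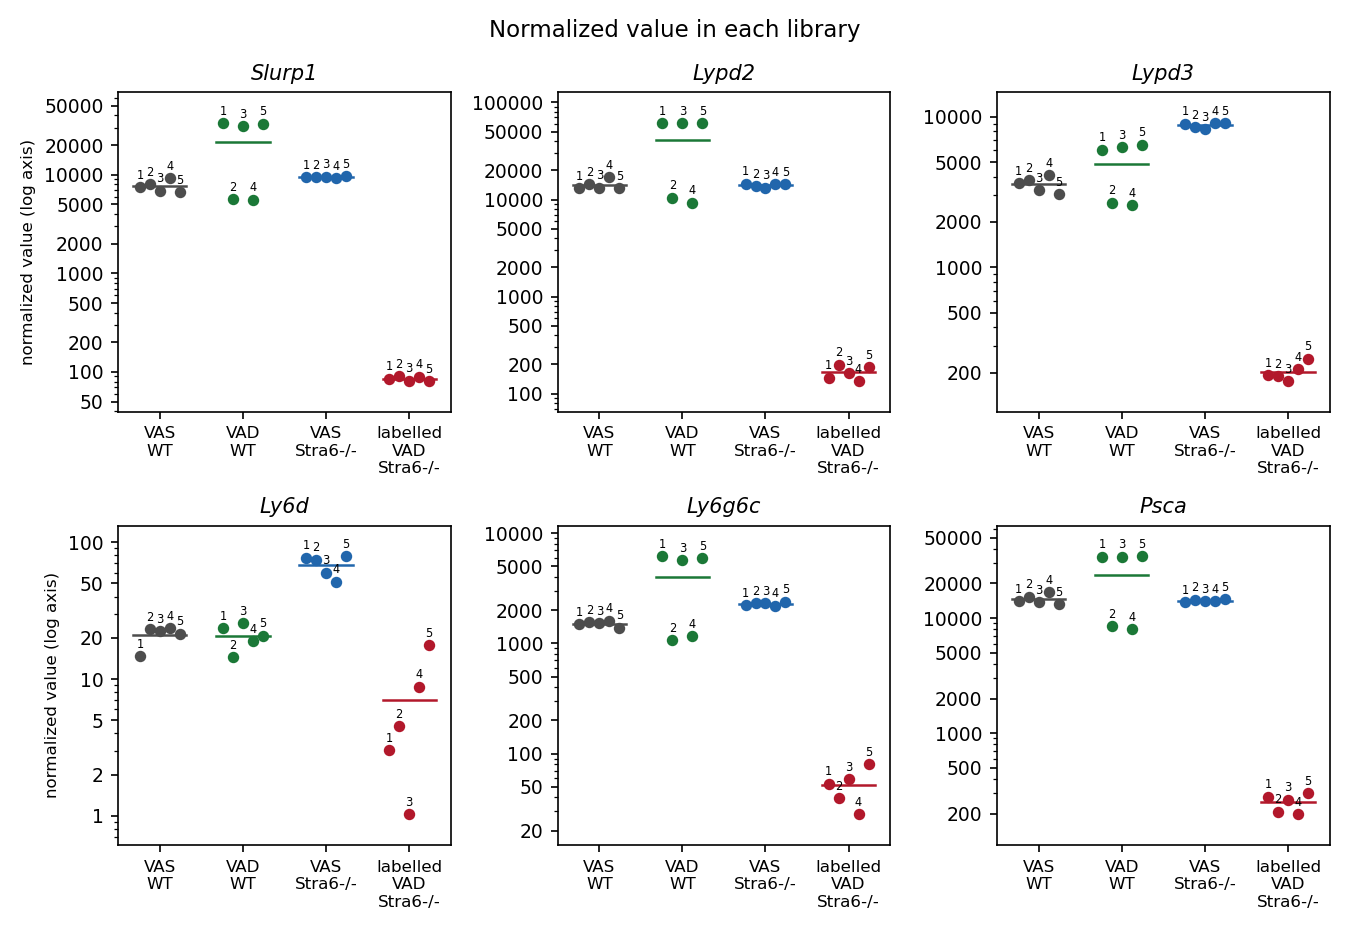
Normalized value of each of the 6 genes in each of the 20 libraries, on a log axis, with 1 panel per gene, points numbered by replicate and a horizontal line at the group mean. The 5 libraries labelled VAD Stra6-/- lie below all others for every gene except Ly6d, where replicate 5 (17.8) is above replicate 2 of VAD WT (14.4), and replicates 1, 3 and 5 of VAD WT lie above replicates 2 and 4.

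Read by comparison, the WT groups on the 2 diets overlapped. The log2 difference of VAD WT from VAS WT was 1.08 (SE 0.39) for Slurp1, 1.06 (SE 0.41) for Lypd2, 1.01 (SE 0.40) for Ly6g6c, 0.42 (SE 0.33) for Psca, 0.32 (SE 0.21) for Lypd3 and -0.03 (SE 0.43) for Ly6d. The libraries of both groups overlapped for all 6 genes, where over all 18807 genes tested 2.13% lay wholly higher and 4.21% wholly lower. These means depend on which VAD WT libraries are used. The median difference of the 6 genes was 0.71, but 1.61 without replicates 2 and 4 and -0.44 without replicates 1, 3 and 5, and the median of all genes was 0.00.

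Between the genotypes on the VAS diet, which also differed in sex by Xist and Ddx3y, the 6 genes parted. Lypd3 was higher by 1.31 (SE 0.21) and Ly6d by 1.66 (SE 0.43) on the log2 scale in VAS Stra6-/-, Ly6g6c by 0.60 (SE 0.40) and Slurp1 by 0.32 (SE 0.39), while Psca (-0.04, SE 0.33) and Lypd2 (-0.00, SE 0.41) stood level. For 4 of the 6 the knockout libraries all lay above the WT ones, against 19.3% of all genes. The standard errors come from a spread shared by the 4 groups, the split VAD WT group included.

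The largest differences were those of the libraries labelled VAD Stra6-/-. Against VAD WT all 6 genes were lower, with a median of -6.11, and 5 of 6 did not overlap. Over all genes 29.6% were called lower in that comparison (adjusted p under 0.05, limma) and 19% had every library lower. Against VAS Stra6-/- all 6 were lower with a median of -5.68 and none overlapped, where 28.8% of all genes were called lower and 26.8% had every library lower. These comparisons share the low group, and the 6 genes were chosen for it, so nothing is read from the counts. The difference in diet effect between genotypes ranged from -3.47 (SE 0.61) for Ly6d to -7.86 (SE 0.55) for Slurp1, where 24.8% of all genes were called lower. With replicates 2 and 4 of VAD WT left out, the median difference from VAD WT was -7.00, and with replicates 1, 3 and 5 left out it was -4.77, and neither changed the direction of any of the 6.

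The order of levels between the genes was set per kb of annotated transcript, since longer transcripts give more reads. In VAS WT the normalized value per kb was 27646 ± 3358 (SD, n = 5) for Lypd2, 16971 ± 1673 (SD, n = 5) for Psca, 2159 ± 251 (SD, n = 5) for Lypd3, 1570 ± 81.7 (SD, n = 5) for Ly6g6c and 28.2 ± 4.82 (SD, n = 5) for Ly6d. The libraries of these 5 genes did not overlap. Slurp1 has an annotated transcript of 2859 bases, which gives 2687 ± 360 (SD, n = 5), and another of 567 bases, which gives 13547 ± 1813 (SD, n = 5). It therefore ranks between Psca and Lypd3 by either length, but overlaps Lypd3 with the longer and Psca with the shorter. In the libraries labelled VAD Stra6-/- Lypd2 (324 ± 52.5 per kb, SD, n = 5) and Psca (291 ± 52.9 per kb, SD, n = 5) overlapped, and Ly6d remained the lowest (9.43 ± 8.93 per kb, SD, n = 5).

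Across the 20 libraries the profiles of the genes were also compared, as the root mean square difference of their log2(value + 1) after each gene's own mean was subtracted. Profiles were not scaled, so this measure counts the size of changes as well as their shape. Slurp1 and Lypd2 were the closest pair, at 0.19, and their genes are next to each other. Ly6g6c and Psca, on different chromosomes, followed at 0.39. Slurp1 and Ly6d, both in the chromosome 15 cluster, were the farthest apart at 2.28. Ly6d has few reads, and the added 1 shrinks its changes, so this distance reflects its smaller range as well. All genes share the same libraries, groups and split of VAD WT, so these distances are a description. Within VAS WT, replicate 4 was the highest library for all 6 genes, and the order from high to low was 4, 2, 1, 3, 5 for Slurp1, Lypd3 and Psca and also for the corneal keratin genes Krt12 and Krt5.

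Among 13515 genes with a mean of at least 50, the 3 most like each of the 6 by this measure were taken. For Slurp1 they were Fam83a (0.43), Krt12 (0.50) and Aqp5 (0.53), the latter a water channel of the cornea and glands. For Lypd2 they were 2610528A11Rik (0.52), Fam83a (0.53) and Krt12 (0.56). For Psca they were 2610528A11Rik (0.25), the adaptor gene Grb7 (0.33) and Krt12 (0.34), and for Ly6g6c they were 2610528A11Rik (0.27), the serine protease gene Tmprss11d (0.37) and Dmrta2 (0.38). For Lypd3 they were Dsg1a (0.21), Ppl (0.23) and Dsc3 (0.23), which encode desmosomal proteins or, for periplakin, a linker of the cell envelope to keratin. For Ly6d the nearest were Ifi202b (0.55), Baz1a (0.57) and Plekhg1 (0.59).

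Markers of cell types moved with the 6 genes. The summed value of 8 corneal epithelium genes (Krt12, Aldh3a1, Krt5, Krt14, Trp63, Tkt, Gjb6 and Col17a1) was 487141 to 618429 in VAS WT, 359614 to 1075140 in VAD WT, 813055 to 848372 in VAS Stra6-/- and 26194 to 34164 in the libraries labelled VAD Stra6-/-. None of the 8 was at 0 in any group. In the last group 7 of the 8 were called lower than in VAD WT, and Gjb6, a gap junction gene, was called higher (limma), where over all genes 29.6% were called lower and 26.2% higher. Of 8 conjunctival epithelium genes 7 were lower there, with sums of 68345 to 111799 in VAD WT and 7917 to 10275 in the libraries labelled VAD Stra6-/-, and Sprr3 was at 0 in both. All 10 of a list of surface epithelium transcription factors, such as Trp63, Klf4 and Ehf, were called lower.

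Other lists went the other way in the same comparison. Of 10 RPE genes 9 were called higher, with sums of 29274 to 55618 in VAD WT and 487568 to 527971 in the libraries labelled VAD Stra6-/-. Called higher were also 8 of 8 skeletal muscle genes, 6 of 8 stromal genes, 5 of 8 leukocyte genes and 4 of 8 endothelial genes, while 6 of 8 rod genes were lower, beside the same 26.2% and 29.6% of all genes. The part of these lists in the values of the 6 genes was not tested. In bulk tissue, fewer cells of a type and less RNA per cell cannot be told apart.

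Within VAD WT, replicates 1, 3 and 5 had corneal sums of 1075140, 1047310 and 1056780 and replicates 2 and 4 had 360419 and 359614, the same split as the Ly6 genes. The RPE sum ran the other way, at 29274, 30582 and 31458 against 55618 and 54062. The endothelial sum was 6030, 6110 and 6093 in replicates 1, 3 and 5. In replicates 2 and 4 it was 17761 and 18224, above the 14378 to 14826 of the libraries labelled VAD Stra6-/-. Stromal (153506 and 157760), skeletal muscle (11117 and 10820) and rod sums (304819 and 306031) were also higher in replicates 2 and 4 than in 1, 3 and 5. Between VAS WT and VAS Stra6-/-, 8 of 10 surface epithelium transcription factors, 3 of 8 corneal genes and 8 of 8 skeletal muscle genes were called higher in the knockout, beside 15.9% of all genes. The part of these shifts was not tested.

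Set against the corneal sum, the 6 genes differed. Slurp1 stood at 14.1 ± 0.679 per 1000 of the summed corneal list in VAS WT, 24.6 ± 8.26 in VAD WT, 11.5 ± 0.244 in VAS Stra6-/- and 2.99 ± 0.445 in the libraries labelled VAD Stra6-/- (SD, n = 5 each). On this scale it was 8.24-fold lower in the last group than in VAD WT and 3.84-fold lower than in VAS Stra6-/-, with no overlap. Lypd2 was 7.92-fold and 2.96-fold lower and Ly6g6c 2.63-fold and 1.57-fold, again without overlap. Psca, at 8.58 ± 0.927 per 1000 there, was 3.33-fold below VAD WT and also below the 17.1 ± 0.441 of VAS Stra6-/- (SD, n = 5 each).

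Lypd3 was not below VAD WT on this scale. Per 1000 of the corneal list it was 6.54 ± 0.278 in VAS WT, 6.48 ± 0.789 in VAD WT and 7.02 ± 0.752 in the libraries labelled VAD Stra6-/- (SD, n = 5 each), which overlapped, while VAS Stra6-/- was apart at 10.6 ± 0.335 (SD, n = 5), so that Lypd3 was 1.51-fold below that group without overlap. Ly6d was 0.233 ± 0.194 in the libraries labelled VAD Stra6-/- and 0.0317 ± 0.0140 in VAD WT (SD, n = 5 each), higher by 7.35-fold in the mean but overlapping. Against the conjunctival list the same 4 genes again stood below VAD WT in the libraries labelled VAD Stra6-/-, by 21.8-fold for Slurp1, and Lypd3 was lower too, by 2.19-fold. Both lists were chosen for this use and are made of few abundant genes, so these ratios depend on their members. The mix of the corneal list also differed between groups. Tkt was its largest gene in the libraries labelled VAD Stra6-/-, at 9843 ± 1166 against 2851 ± 512 for Krt12 (SD, n = 5 each). In VAS Stra6-/- Krt12 stood at 277635 and Tkt at 56608. Ratios to Krt12 alone were not taken in each library. By the means, Krt12 went from 279050 in VAD WT to 2851 in the libraries labelled VAD Stra6-/-. Psca (23857 to 250), Ly6g6c (4007 to 52.0), Lypd3 (4824 to 203) and Ly6d (20.6 to 7.02) fell by no more than Krt12. Slurp1 (21745 to 85.7) and Lypd2 (40630 to 166) fell by more. From VAS Stra6-/-, only Slurp1 (9501 to 85.7) fell by more than Krt12. A fall of all 6 genes relative to that marker is therefore not shown.

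**Figure D2:**
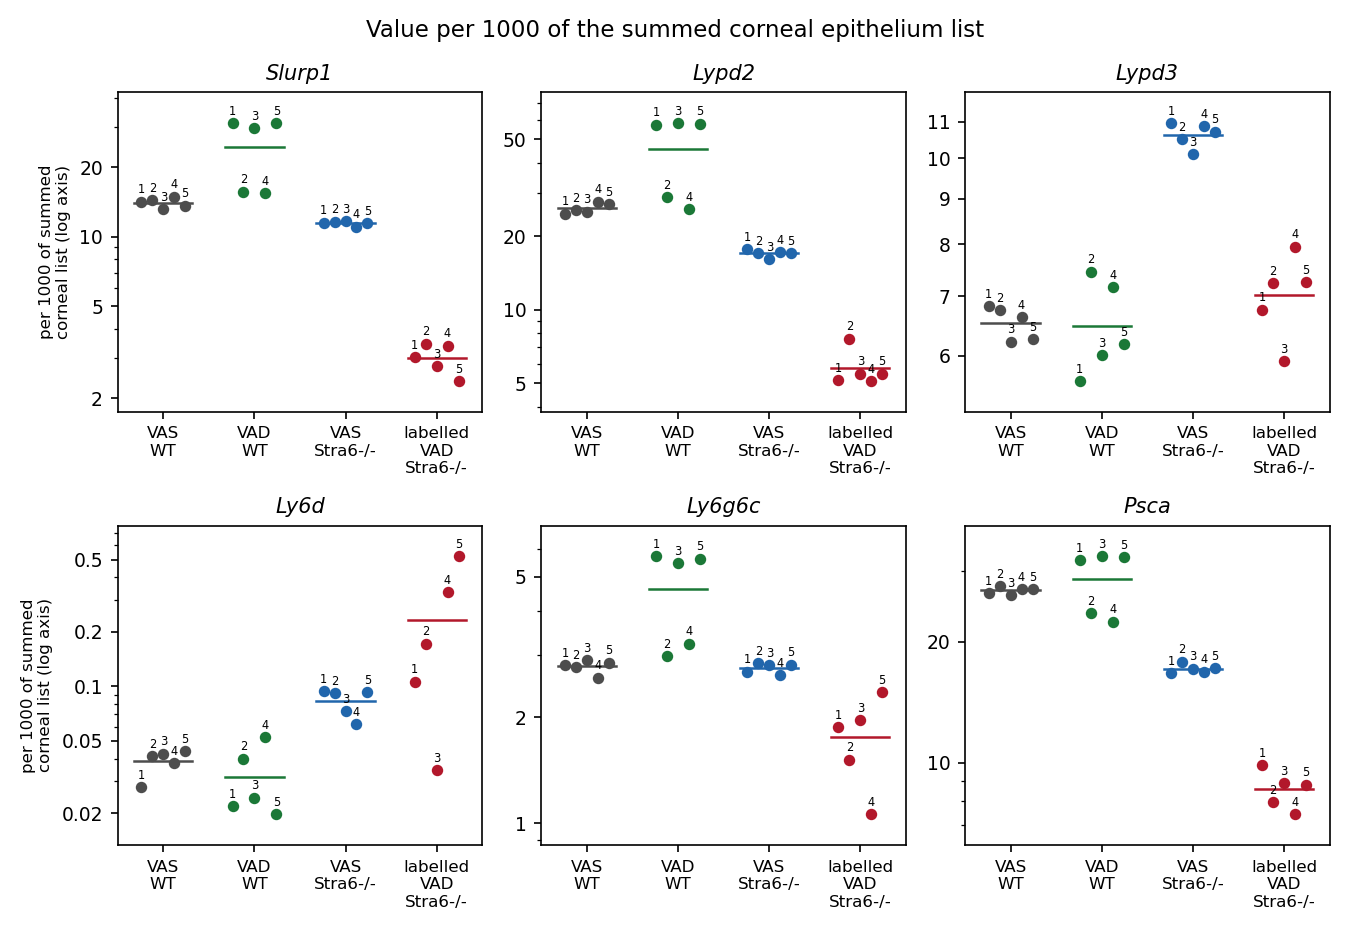
Value of each of the 6 genes per 1000 of the summed corneal epithelium list in each library, on a log axis, with points numbered by replicate and a horizontal line at the group mean. On this scale Slurp1, Lypd2, Psca and Ly6g6c remain lowest in the libraries labelled VAD Stra6-/-. Lypd3 there (7.02 on average) overlaps VAS WT and VAD WT, and Ly6d does not lie lower there than in VAD WT. Tkt is the largest gene of the list only in the libraries labelled VAD Stra6-/-, so these ratios depend on the members of the list.

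Genes around the cluster were read as well. Within 400000 bases of the Slurp1 start, a window chosen after values were seen, 19 genes were tested and 14 had a group mean of at least 10. Of the 10 that are not among the 6 genes, 7 were below and 2 above VAD WT in the libraries labelled VAD Stra6-/-, at an adjusted p under 0.05 in limma, beside 29.6% and 26.2% of all genes. D730001G18Rik, 50825 bases from the Slurp1 start beyond Ly6d, had the lowest value at -4.40 (adjusted p = 6.06e-08, limma). Them6, whose 3′ end overlaps Slurp1, stood at -1.47 (adjusted p = 1.41e-09, limma), and Lynx1, a membrane-bound modulator of nicotinic receptors that lies between Lypd2 and Ly6d, at -1.33 (adjusted p = 1.02e-12, limma). Arc, a neuronal immediate early gene on the other side of Slurp1, was at -0.09 in this comparison (adjusted p = 0.857, limma). It did change in others, at 3.64 in VAS Stra6-/- against VAS WT (adjusted p = 1.7e-07, limma). In the libraries labelled VAD Stra6-/- it was at -3.27 against VAS Stra6-/- (adjusted p = 6.93e-08, limma).

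**Figure D3:**
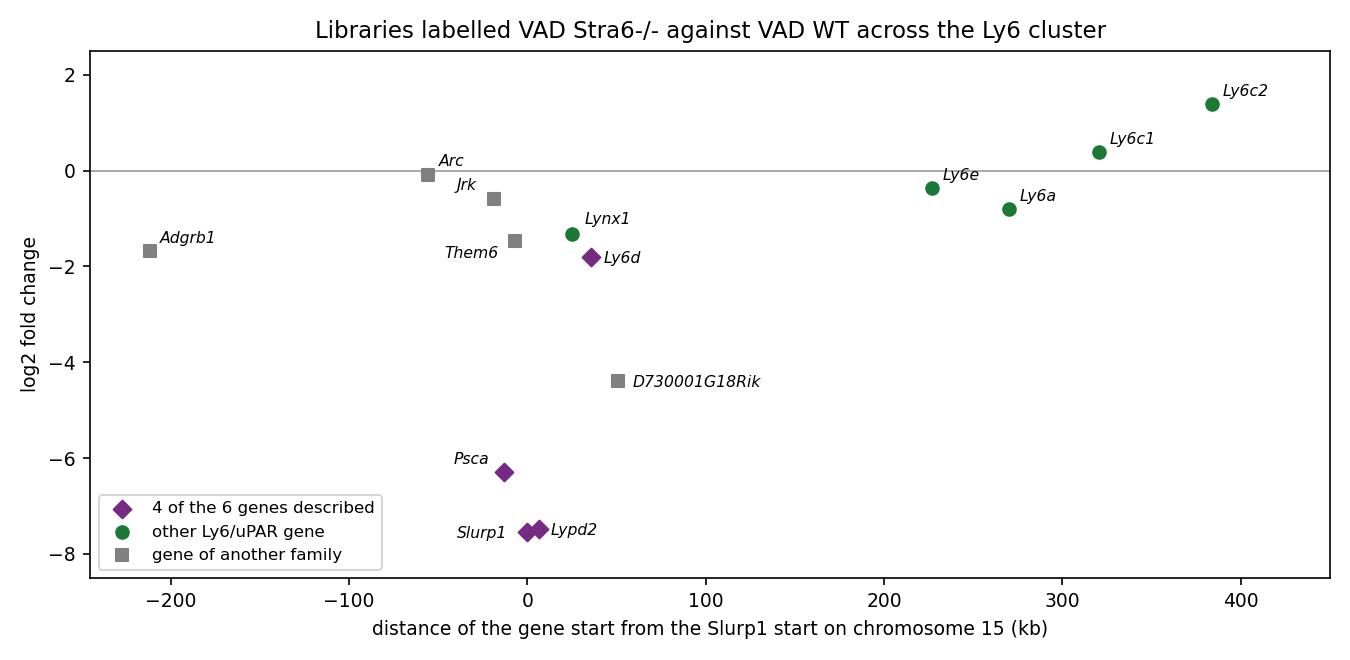
Log2 fold change of the libraries labelled VAD Stra6-/- against VAD WT (y axis) for genes with a group mean of at least 10, by distance of the gene start from the Slurp1 start on chromosome 15 in kb (x axis). Psca, Slurp1 and Lypd2 lie between -7.54 and -6.29, and Ly6d lies at -1.81. Them6 (-1.47) and Lynx1 (-1.33) in between or beside them and the Ly6a, Ly6c and Ly6e genes farther off stay between -1.47 and 1.39. D730001G18Rik (-4.40) and Adgrb1 (-1.68), of other families, lie lower than these.

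Other family members gave a mixed picture. Of 41 listed genes 32 are in the table and 26 were tested. Between the WT groups Lynx1 was higher in VAD WT than in VAS WT (0.40, SE 0.07, adjusted p = 0.000691, limma). Ly6e, an interferon-responsive GPI-anchored protein, was lower there, at 7112 ± 220 against 13274 ± 675 (SD, n = 5 each, log2 fold change -0.90, adjusted p = 6.65e-09, limma). That is 1 of 26 in each direction, where 3.29% of all genes were called higher and 5.5% lower. Between genotypes on the VAS diet 4 rose and 4 fell, where 15.9% of all genes were called higher and 10.8% lower. Plaur, the urokinase receptor that gives the family part of its name, rose from 46.9 ± 4.23 to 445 ± 21.4 (SD, n = 5 each, log2 fold change 3.22, adjusted p = 0.00966, limma). Lynx1 (0.41, adjusted p = 0.000148) and Ly6c1 (0.40, adjusted p = 0.0175) rose as well in limma. Ly6c2 (-1.47, adjusted p = 0.0422), Lypd1 (-1.14, adjusted p = 0.0142) and Ly6a (-0.44, adjusted p = 0.0347) fell in limma, each losing its call when certain single libraries were left out.

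In the libraries labelled VAD Stra6-/-, 5 of the 26 were higher and 9 lower than in VAD WT, beside 26.2% and 29.6% of all genes. The lowest was Ly6g6e, a neighbour of Ly6g6c on chromosome 17, which fell from 566 ± 302 to 18.4 ± 11.4 (SD, n = 5 each, log2 fold change -4.90, SE 0.39, adjusted p = 6.4e-10, limma). Pinlyp fell from 26.4 ± 20.4 to 2.37 ± 3.82 (SD, n = 5 each, -3.18, adjusted p = 0.000619, limma), with overlap between libraries. Lypd8, a GPI-anchored protein best known from the colon, was at 0 in all 5 libraries labelled VAD Stra6-/- and at 15.5 ± 10.6 in VAD WT (SD, n = 5). By the means this is at least 5.56-fold lower against a floor of 3 reads per library (adjusted p = 0.00255, limma). The libraries overlapped, since VAD WT replicate 2 was also at 0. Without replicates 1, 3 and 5 of VAD WT neither Lypd8 nor Pinlyp was called.

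Those that rose in the same comparison were Plaur (2.97, adjusted p = 0.00701), Ly6c2 (1.39, adjusted p = 0.0287), Gpihbp1 (1.01, adjusted p = 0.0139), which carries lipoprotein lipase on capillary endothelium, Lypd6 (0.52, adjusted p = 0.0183) and Ly6c1 (0.38, adjusted p = 0.0104), all in limma. The Plaur values in VAD WT were 14.1, 197, 0, 184 and 26.0, high in replicates 2 and 4 where the 6 genes were low, and without replicates 1, 3 and 5 its log2 fold change was 0.16 and no longer called, as also with edgeR or DESeq2. Against VAS Stra6-/-, 3 were higher and 8 lower, beside 24.4% and 28.8% of all genes, with Ly6g6e at -4.61 (adjusted p = 1.55e-09, limma), Lypd8 at least 3.91-fold lower and Pinlyp at -3.41 (adjusted p = 0.000328, limma), and with Ly6c2 at 2.57 (adjusted p = 0.000265), Lypd6 at 0.66 (adjusted p = 0.00372) and Cd59a at 0.39 (adjusted p = 0.0244) on the other side. Ly6a, Ly6c1 and Ly6c2 are close in sequence, so reads may have been split between them in counting. The median over the 26 was 0.00 against VAD WT and -0.42 against VAS Stra6-/-, beside -0.05 and -0.07 over all genes.

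**Figure D4:**
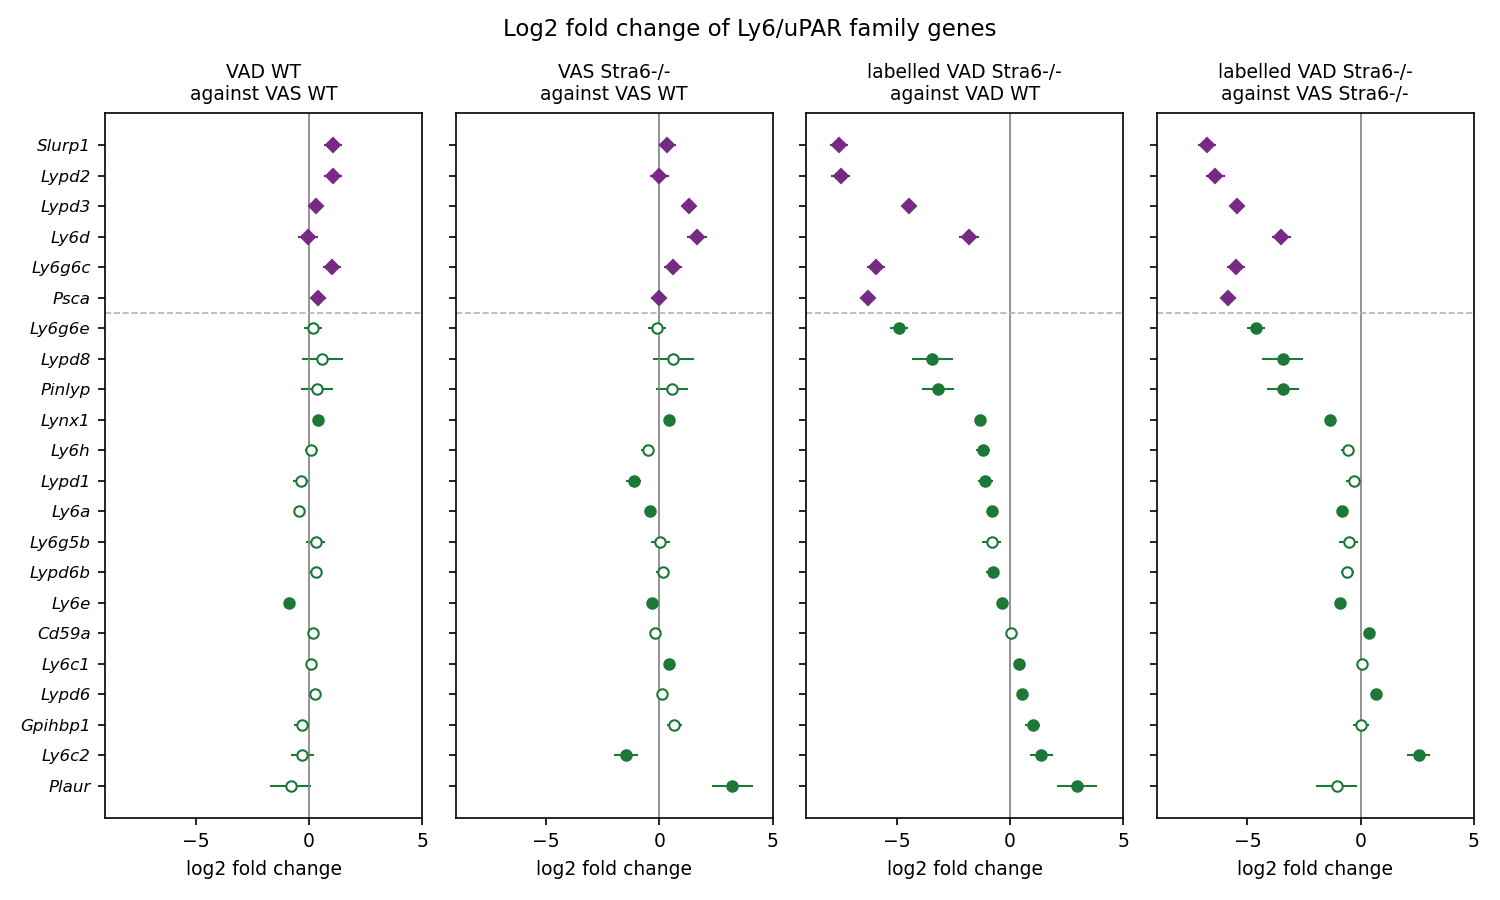
Log2 fold change with its standard error (x axis) of the 6 genes (purple diamonds, no test) and of the other Ly6/uPAR genes with a group mean of at least 10 (circles, filled where the adjusted p was under 0.05 in limma) in the 4 comparisons. In both comparisons of the libraries labelled VAD Stra6-/- the 6 genes range from -7.54 to -1.81, Ly6g6e is the lowest of the others (-4.90 and -4.61), and Plaur (2.97) and Ly6c2 (2.57) are the highest.

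Of 16 listed subunit genes of nicotinic acetylcholine receptors, the partners of SLURP1 and LYNX1, 15 were tested. In the libraries labelled VAD Stra6-/- 1 was called higher and 2 lower against VAD WT, beside 26.2% and 29.6% of all genes. Chrnb4 was lower in VAD WT than in VAS WT, at 87.0 against 221 (log2 fold change -1.38, adjusted p = 4.71e-06, limma). It stood at 618 in the libraries labelled VAD Stra6-/-, higher than in VAD WT by 2.85 (adjusted p = 1.99e-12, limma) and than in VAS Stra6-/- by 1.52 (adjusted p = 4.68e-08, limma). Chrnb2 (-1.31, adjusted p = 0.00012) and Chrna6 (-0.95, adjusted p = 0.00104) were below VAD WT in the same libraries, in limma. Between genotypes on the VAS diet 2 of the 15 were called higher and 0 lower, beside 15.9% and 10.8% of all genes. Chrna1, a muscle subunit, rose from a mean of 4.42 to 20.3 with overlapping libraries (2.18, adjusted p = 0.00612, limma). The other muscle subunits tested, Chrnb1 (-0.21, adjusted p = 0.408), Chrne (-0.42, adjusted p = 0.717) and Chrng (0.76, adjusted p = 0.224), were not called in limma.

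The enzymes that make and attach the GPI anchor moved in both directions. Of 28 listed genes 27 were tested, and 6 were above and 11 below VAD WT in the libraries labelled VAD Stra6-/-, beside 26.2% and 29.6% of all genes. Piga, the catalytic subunit of the first step, fell most, from 1478 to 144 (log2 fold change -3.31, SE 0.16, adjusted p = 2.07e-13, limma), against 2294 in VAS Stra6-/- (adjusted p = 7.03e-15, limma). Pigc, of the same enzyme complex, fell by 1.46 (adjusted p = 5.44e-06, limma) and Pgap2 by 1.15 (adjusted p = 3.06e-05, limma). Pigz, a late mannosyltransferase, rose by 2.62 (adjusted p = 6.51e-08), and the transamidase subunits Pigs (1.02, adjusted p = 2.81e-10) and Pigk (0.67, adjusted p = 8.28e-08) rose as well, in limma. Against VAS Stra6-/- 8 were higher and 8 lower, beside 24.4% and 28.8% of all genes, with Pgap1, which remodels the anchor lipid, at -2.25 (adjusted p = 2.9e-13, limma). Between the WT groups 5 were lower in VAD WT, beside 5.5% of all genes called lower, Pigz (-1.22, adjusted p = 0.00694), Pgap1 (-0.74, adjusted p = 0.000146) and Pigu (-0.48, adjusted p = 0.0418) by the most, in limma. Between genotypes on the VAS diet Pgap1 rose by 0.60 (adjusted p = 0.000368, limma), and Pigp (-0.46, adjusted p = 0.0314) and Dpm3 (-0.45, adjusted p = 0.0215) fell in limma. The median over the list was -0.29 against VAD WT.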

How the data were processed

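The authors aligned the reads to GRCm38/mm10 with STAR 2.5.3a, counted them per gene with RSEM 1.2.30 and used DESeq2 1.32.0 (submitters' processing notes and methods). The deposited signal holds their gene counts after division by 1 size factor per library, without length or log scaling. In 19 libraries all positive values were whole multiples of the smallest within 0.01 of a read, so reads were recovered. In the library labelled VAD Stra6-/- replicate 1 the value of 1 read was too near 1 to claim this, and only the count tests leave it out. From the signal, log2(value + 1) was fitted with limma 3.58.1 in R 4.3.3, with 4 group means, an intensity trend and Benjamini-Hochberg adjustment over 18807 genes with at least 5 reads in total. A call is an adjusted p under 0.05. A floor of 3 reads per library bounds a value of 0 and covers counting error only. The fit was tested on simulated data. Alternatives were edgeR 4.0.16 and DESeq2 1.42.0 on recovered reads, TMM rescaling, pseudocounts of 0.5 and 4, other filters, a replicate block, only the groups compared, a fold threshold and libraries left out. Leaving out VAD WT replicates 1, 3 and 5 was added after seeing the data.

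The members and lists were chosen with earlier results of these data known. Named were the 6 genes, Stra6, the cell type lists, the 3 nearest genes to each of the 6 by profile, and, per list and comparison, the 3 largest called rises and falls with a group mean of at least 10. The 400000 base window and its genes Them6, D730001G18Rik and Arc, and Xist and Ddx3y, were named after their values were seen. Promoters came from RefSeq, which matched 2 of the 6 genes; positions came from GENCODE vM21. P-values measure the spread between these libraries. The study's methods give 1 mouse per library, but the VAD libraries held transcripts of both sexes, so n = 5 may not stand for 5 animals and the spread may be technical.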

Additional observations from a re-analysis of the deposited data

Results flagged for a closer look

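Of 80 groups of 5 libraries checked for a library far from the others of its group, 4 were found. That is the share of about 1 in 20 that chance alone gives, so the flags are no more than chance would give. These were Ly6d in VAS WT replicate 1, at a normalized value of 14.7 against 21.4 to 23.4 in the other 4, Lynx1 in replicate 5 of the libraries labelled VAD Stra6-/- at 1004, Ly6a in VAS Stra6-/- replicate 3 at 3174, and Cd59a in replicate 5 of the libraries labelled VAD Stra6-/- at 1279. Cd59a was called higher in that group than in VAS Stra6-/-, and without its replicate 5 the log2 fold change was 0.29 and no longer called.

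The effect of the diet on the other Ly6/uPAR genes differed between genotypes for 5 named genes, by the interaction term in limma. The diet effect in the groups labelled Stra6-/- minus that in WT was -1.74 for Lynx1 (adjusted p = 9.24e-12), 2.85 for Ly6c2 (adjusted p = 0.00328), -4.78 for Ly6g6e (adjusted p = 3.09e-07), -4.03 for Lypd8 (adjusted p = 0.0128) and -3.76 for Pinlyp (adjusted p = 0.00414). The Lypd8 value depends on the added 1, since the gene was at 0 in every library labelled VAD Stra6-/-. All 5 rest on that group, in which the normalized value of Stra6 was above that of VAD WT.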

How the results depend on the processing

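Of 924 values of the 6 genes under alternatives, 894 moved by less than the replicate spread and 30 moved by more, all of them with VAD WT replicates 2 and 4 or 1, 3 and 5 left out. Without replicates 2 and 4 the medians of the 6 genes were 1.61 (VAD WT against VAS WT), -7.00 (libraries labelled VAD Stra6-/- against VAD WT) and -7.28 (interaction), and without 1, 3 and 5 they were -0.44, which turned the direction, -4.77 and -5.05. Genes called between the WT groups numbered 1652 in the fit reported, 7124 without 2 and 4, 6164 without 1, 3 and 5, and 639 with only the groups compared. Between genotypes on the VAS diet they numbered 5010, 7524, 7913 and 8208. With a log2 fold change beyond 2 added, calls in the 5 comparisons were 77, 207, 1952, 1707 and 1960, and those among the other family genes were 0, 1, 4 and 5 in the first 4. Other family genes called numbered 6 between the WT groups in both of the reduced VAD WT sets, in place of 2, and 7 in place of 14 against VAD WT without replicates 1, 3 and 5. Leaving out single libraries gave 1260 to 2651 calls between the WT groups, the highest without VAD WT replicate 4, and 5 to 8 other family genes between genotypes on the VAS diet, the lowest without VAS WT replicate 2 or VAS Stra6-/- replicate 5. DESeq2 split the calls between the WT groups into 1059 higher and 1082 lower, the reported fit into 618 and 1034. edgeR called 1529 there. Plaur against VAD WT was not called by edgeR (1.27) or DESeq2 (1.33), nor Gpihbp1 by edgeR (0.82). The cause of these shifts was not tested.

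Same-numbered libraries of different groups correlated between -0.20 and 0.15, so the numbers do not pair them. With a replicate block the calls numbered 1446, 4820, 10423, 9937 and 8193, against 1652, 5010, 10504, 10004 and 8319 without it. Depth limits Ly6d, Lypd8 and Pinlyp in the libraries labelled VAD Stra6-/-, where each rests on few reads.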
